A study of Mus musculus with 6 samples.

Results

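The genes described here encode 40 subunits and ATPases of chromatin remodellers of the BAF (SWI/SNF), ISWI, CHD and INO80 families, taken by gene symbol from a fixed list of 40, all of which were found among the 24002 genes of the RNA-seq table. They comprised 28 BAF genes, 2 ISWI ATPase genes, 9 CHD genes and Ino80. The samples were R1 mouse embryonic stem cells, grown with 15% serum replacement and 1000 U/ml of the self-renewal cytokine LIF, formed into embryoid bodies in hanging drops for 48 h and treated with retinoic acid up to day 6. The labels give the dose as 0.5 mM, a unit that is uncertain because micromolar doses are usual. Poly(A) RNA of 3 samples was sequenced, 3 others went into ATAC-seq, and all 6 share this genotype and treatment. The values are therefore levels at day 6, with no untreated or earlier state to set them against.

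Remodellers use the energy of ATP to slide, eject or restructure nucleosomes and so change which DNA is accessible. BAF is assembled from positions that paralogous subunits can fill, and in the mouse nervous system the subunits of proliferating progenitors, encoded by Actl6a, Ss18, Phf10 and Dpf2, give way in post-mitotic neurons to those encoded by Actl6b, Ss18l1, Dpf1 and Dpf3. ISWI enzymes space nucleosomes, CHD enzymes carry chromodomains that bind histone tails, and the INO80 complex exchanges histone variants and moves nucleosomes.

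Levels are in FPKM, which counts fragments relative to transcript length and library size, so that different genes can be set side by side. Total reads are not known. The most common ratio between low values put replicate 1 at 1.56 times the depth of replicate 2 and 1.17 times that of replicate 3. This estimate holds only if those values stand for equal read numbers. The labels do not say whether the replicates were separate cultures, so their spread may be technical. The samples were a mixture. Of 7 neuron markers, 7 had at least 1 FPKM in every replicate, with sums of 1419, 1359 and 1360 FPKM in replicates 1, 2 and 3. The 6 neural progenitor markers summed to 1386, 1357 and 1345 FPKM and the 5 proliferation markers to 119, 123 and 121 FPKM, all of them expressed. Most of the progenitor sum came from Fabp7 and Vim, with means of 910 and 262 FPKM. Tubb3 and Stmn2, at 645 and 420 FPKM, gave most of the neuron sum, so these sums do not measure shares of cells. Extraembryonic endoderm markers were also expressed, 7 of 7, and their sum was 393 FPKM in replicate 1, against 530 and 538 FPKM in replicates 2 and 3. Of the labelled stem cell type, the defining markers Nanog and Pou5f1 stood at 0.0879 ± 0.0318 and 0.815 ± 0.0792 FPKM (SD, n = 3), and of 3 pluripotency markers 1 was expressed, Zfp42. Of the markers of other lineages, 2 of 3 astrocyte, 0 of 4 mesoderm and heart and 0 of 2 endothelium markers were expressed. In such bulk samples, fewer cells of a type and less RNA per cell cannot be told apart.

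Every remodelling gene of the list was expressed, and most stood above the typical expressed gene. All 40 had at least 1 FPKM in every replicate, a level reached by 50.7% of all genes, and 29 had at least 10 FPKM in every replicate, a level reached by 24.5% of all genes. The median of their means was 18.0 FPKM, beside 10.01 FPKM over all expressed genes and 1.31 FPKM over all genes. The middle of the list, from the lower to the upper quartile, ran from 9.44 to 31.6 FPKM. Chd4 at 83.5 ± 1.48 FPKM (SD, n = 3) was the highest and Ino80 at 3.77 ± 0.125 FPKM the lowest, which lie at percentiles 97.3 and 59.5 of all genes by mean FPKM. In the order of means, 15 of the 39 steps from a gene to the next lower one were wider than the spread between replicates, in that the ranges of the replicates did not overlap, and at the other 24 steps they did. Levels of paralogues are compared below by whether their replicate ranges overlap. This spread shows only how far a gene's own value repeats. Errors that are the same in every library, as in transcript length or read placement, are not part of it. A small gap between 2 genes may therefore lie within such errors. With 3 libraries, an exact sign-flip permutation test of a difference between 2 genes cannot go below p = 0.25, two-sided, so no such test is given.

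**Figure D1:**
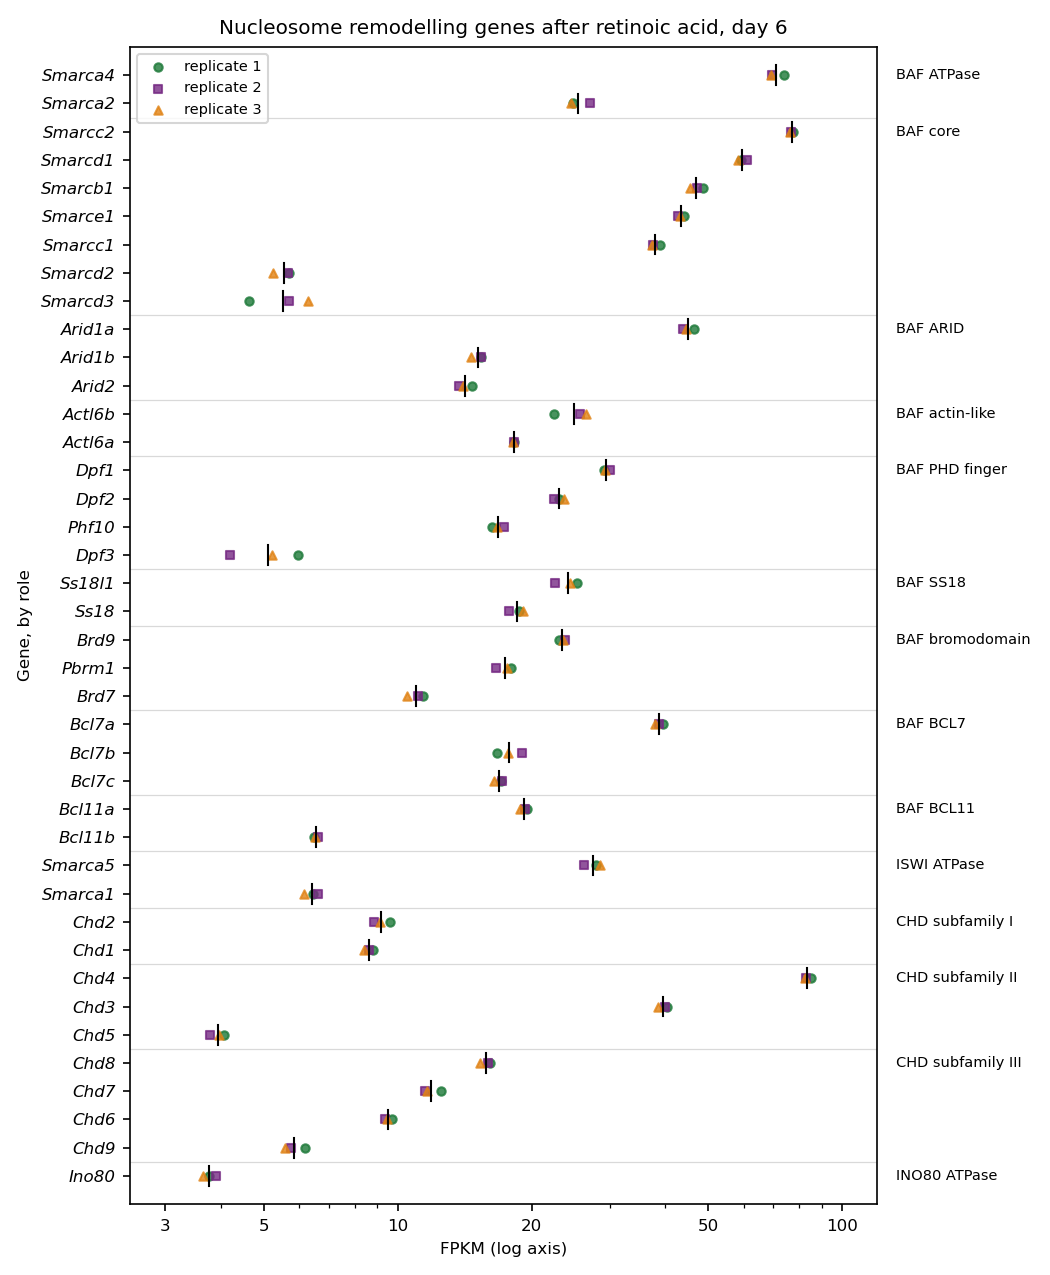
FPKM on a log axis of each of the 40 genes, in rows ordered by role and then by mean, with a point for each of the 3 replicates and a bar at the mean. Chd4, Smarcc2 and Smarca4 lie farthest right, with means of 83.5, 77.0 and 70.9 FPKM, and Dpf3 and Smarcd3 have the widest spread between replicates.

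The catalytic and core subunits of BAF stood high, with 1 paralogue well above the others in the ATPase, SMARCC and SMARCD positions. Smarca2, which encodes the ATPase BRM, had 24.8, 27.0 and 24.5 FPKM in replicates 1, 2 and 3, and Smarca4, which encodes the alternative ATPase BRG1, had 74.0, 69.4 and 69.1 FPKM. The ranges lay far apart, and Smarca2 supplied 26.4 ± 1.49% of their summed FPKM (SD, n = 3). On the log2(FPKM + 1) scale Smarca2 minus Smarca4 came to -1.44 ± 0.11. The scaffold gene Smarcc2 had 77.6, 76.8 and 76.5 FPKM and its paralogue Smarcc1, whose product prevails in the BAF complex of mouse embryonic stem cells, had 39.0, 37.5 and 37.3 FPKM. Smarcc2 thus stood at 2.03 ± 0.0337 times the FPKM of Smarcc1 in these libraries. The core genes without a paralogue on the list were close to each other, with Smarcb1 at 48.5, 47.1 and 45.5 FPKM and Smarce1, which encodes an HMG-box subunit, at 44.2, 42.7 and 43.1 FPKM. All 3 values of Smarcb1 lay above all 3 of Smarce1.

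Within the SMARCD position, which links the complex to transcription factors, Smarcd1 made up 84.3 ± 0.835% of the summed FPKM (SD, n = 3). Smarcd1 had 59.2, 61.2 and 58.3 FPKM in replicates 1, 2 and 3. Smarcd3, known from heart and muscle, had 4.62, 5.69 and 6.29 FPKM, and Smarcd2, known from blood cell development, had 5.69, 5.67 and 5.24 FPKM. The ranges of Smarcd3 and Smarcd2 overlapped, with a ratio of Smarcd3 to Smarcd2 of 1.00 ± 0.194 in FPKM. Of the 3 genes, Smarcd3 varied most, and replicate 1 was the low one. Smarcd3 overlaps the protein-coding gene Chpf2 in the RefSeq annotation, which had 10.5, 11.6 and 10.5 FPKM; strand use in counting is not given, and its part in the Smarcd3 values was not tested. The promoter sequences of the high and a low paralogue are shown because they differ in CpG dinucleotides, which are frequent in the promoters of broadly used genes. Each is the 250 bases before the annotated start, from RefSeq (build GRCm38.p6), 5′ to 3′ along the gene, with CpG in capitals.
Smarcd1 promoter, chr15:99702037-99702286, plus strand: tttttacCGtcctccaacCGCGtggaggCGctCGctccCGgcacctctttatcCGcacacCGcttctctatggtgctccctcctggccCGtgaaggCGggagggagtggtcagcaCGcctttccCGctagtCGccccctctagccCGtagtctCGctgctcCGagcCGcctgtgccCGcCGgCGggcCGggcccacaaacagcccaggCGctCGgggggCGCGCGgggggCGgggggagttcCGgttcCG
Smarcd2 promoter, chr11:106267633-106267882, minus strand: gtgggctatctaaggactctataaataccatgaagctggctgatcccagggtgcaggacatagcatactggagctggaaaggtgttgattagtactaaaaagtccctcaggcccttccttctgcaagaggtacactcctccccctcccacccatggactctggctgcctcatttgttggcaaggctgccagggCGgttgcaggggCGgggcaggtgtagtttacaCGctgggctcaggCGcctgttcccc
The Smarcd1 stretch holds 29 CpG and the Smarcd2 stretch 4. Over the 300 bases from 250 before to 50 after the start, the ratio of observed to expected CpG was 0.917 for Smarcd1 and 0.177 for Smarcd2. For Smarcd3, which stood as low as Smarcd2, this ratio was 0.959, so the low paralogues did not share the low CpG content.

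ARID subunits define the assemblies of BAF, and Arid1a stood well above the other ARID genes. Arid1a, which encodes the DNA-binding subunit of canonical BAF, had 46.4, 43.8 and 44.6 FPKM in replicates 1, 2 and 3. Its alternative Arid1b had 15.4, 15.4 and 14.6 FPKM, or 25.2 ± 0.722% of the pair (SD, n = 3). Arid2, the subunit of the PBAF assembly, had 14.7, 13.7 and 14.0 FPKM, and its range overlapped that of Arid1b but not that of Arid1a. Of the further PBAF genes, Pbrm1 and Phf10 lay above Arid2 and Brd7 lay below it, each without overlap with Arid2. Pbrm1, a protein with several bromodomains, had 18.0, 16.6 and 17.7 FPKM, and Phf10 had 16.3, 17.4 and 16.7 FPKM. Brd9, which marks the non-canonical assembly, had 23.0, 23.8 and 23.6 FPKM, and its relative Brd7, of PBAF, had 11.4, 11.1 and 10.5 FPKM. Brd9 lay above Brd7 without overlap, at 2.13 ± 0.113 times its FPKM. Gltscr1 and Gltscr1l, which encode further subunits of that assembly and are not on the list of 40, were lower at 7.92 ± 0.173 and 5.85 ± 0.0138 FPKM. Median means were 23.1 FPKM for 5 genes of canonical BAF (Arid1a, Arid1b, Dpf1, Dpf2 and Dpf3), 15.5 FPKM for 4 genes of PBAF and 7.92 FPKM for 3 genes of the non-canonical assembly. Pbrm1 and Phf10 overlap Smim4 and 1600012H06Rik in the annotation, which had means of 14.7 and 9.93 FPKM, so reads of these pairs may not be fully separated.

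In the actin-like position, the paralogue of neurons stood above that of progenitors. Actl6b had 22.5, 25.7 and 26.6 FPKM in replicates 1, 2 and 3, and Actl6a had 18.3, 18.3 and 18.2 FPKM. The ranges did not overlap, and Actl6b was the higher in each library. Its share of the pair was 55.2%, 58.5% and 59.4%, or 57.7 ± 2.20% (SD, n = 3). The log2 ratio of Actl6b to Actl6a was 0.43 ± 0.12 with a pseudocount of 1. Actl6a varied least of all 40 genes, with a coefficient of variation of 0.277%, whereas the spread of the ratio came from Actl6b, which was 12.5% lower in replicate 1 than in the lower of the others. The promoters are shown because both paralogues were expressed, with Actl6b at 1.37 ± 0.120 times the FPKM of Actl6a (SD, n = 3).
Actl6b promoter, chr5:137553296-137553545, plus strand: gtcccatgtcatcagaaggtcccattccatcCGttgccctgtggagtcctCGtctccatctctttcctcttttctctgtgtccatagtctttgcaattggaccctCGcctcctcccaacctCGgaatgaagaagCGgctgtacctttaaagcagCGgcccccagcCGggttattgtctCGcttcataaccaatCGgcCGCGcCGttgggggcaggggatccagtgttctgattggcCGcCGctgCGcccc
Actl6a promoter, chr3:32708296-32708545, plus strand: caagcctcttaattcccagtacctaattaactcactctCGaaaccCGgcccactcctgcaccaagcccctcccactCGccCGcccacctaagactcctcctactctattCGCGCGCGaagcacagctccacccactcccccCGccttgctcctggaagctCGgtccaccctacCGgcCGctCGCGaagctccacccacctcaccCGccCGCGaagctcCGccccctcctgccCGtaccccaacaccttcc
CpG is in capitals, with 15 in the Actl6b stretch and 19 in the Actl6a stretch. The 300-base ratio of observed to expected CpG was 0.827 for Actl6b and 0.990 for Actl6a, so both lie in CpG-rich sequence.

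The PHD finger and SS18 positions likewise held transcripts of both the neuronal and the progenitor form. Dpf1, a neuronal PHD finger subunit, had 29.1, 30.0 and 29.3 FPKM in replicates 1, 2 and 3. Dpf2, which is used broadly, had 23.1, 22.5 and 23.7 FPKM, below Dpf1 without overlap. Dpf3, the other neuronal form and one also known from heart and muscle, was the lowest and the least even, with 5.95, 4.19 and 5.21 FPKM. Summed, the neuronal genes Dpf1 and Dpf3 made up 46.5 ± 0.569% (SD, n = 3) of the FPKM of this position, and Dpf2 and Phf10 the rest. The log2 ratio of the neuronal to the progenitor sum was -0.20 ± 0.03. Here the progenitor sum was the higher, opposite to the actin-like position, but this direction rests on counting both Dpf2 and Phf10. The neuronal sum, at 34.6 ± 0.433 FPKM (SD, n = 3), lay above Dpf2 alone and above Phf10 alone. Dpf1 alone, at 29.5 ± 0.493 FPKM (SD, n = 3), lay above Dpf2 and above Phf10 at 16.8 ± 0.530 FPKM. Phf10 is also a PBAF gene, and its reads may not be fully separated from those of 1600012H06Rik, as given above. Ss18l1, which encodes the neuronal subunit CREST, had 25.3, 22.6 and 24.4 FPKM, against 18.7, 17.8 and 19.2 FPKM for Ss18, the progenitor form. Ss18l1 was the higher in each library, with 56.5 ± 0.900% of the pair (SD, n = 3) and a log2 ratio to Ss18 of 0.36 ± 0.05. The cells were not sorted, so which of them held which transcript was not measured.

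**Figure D2:**
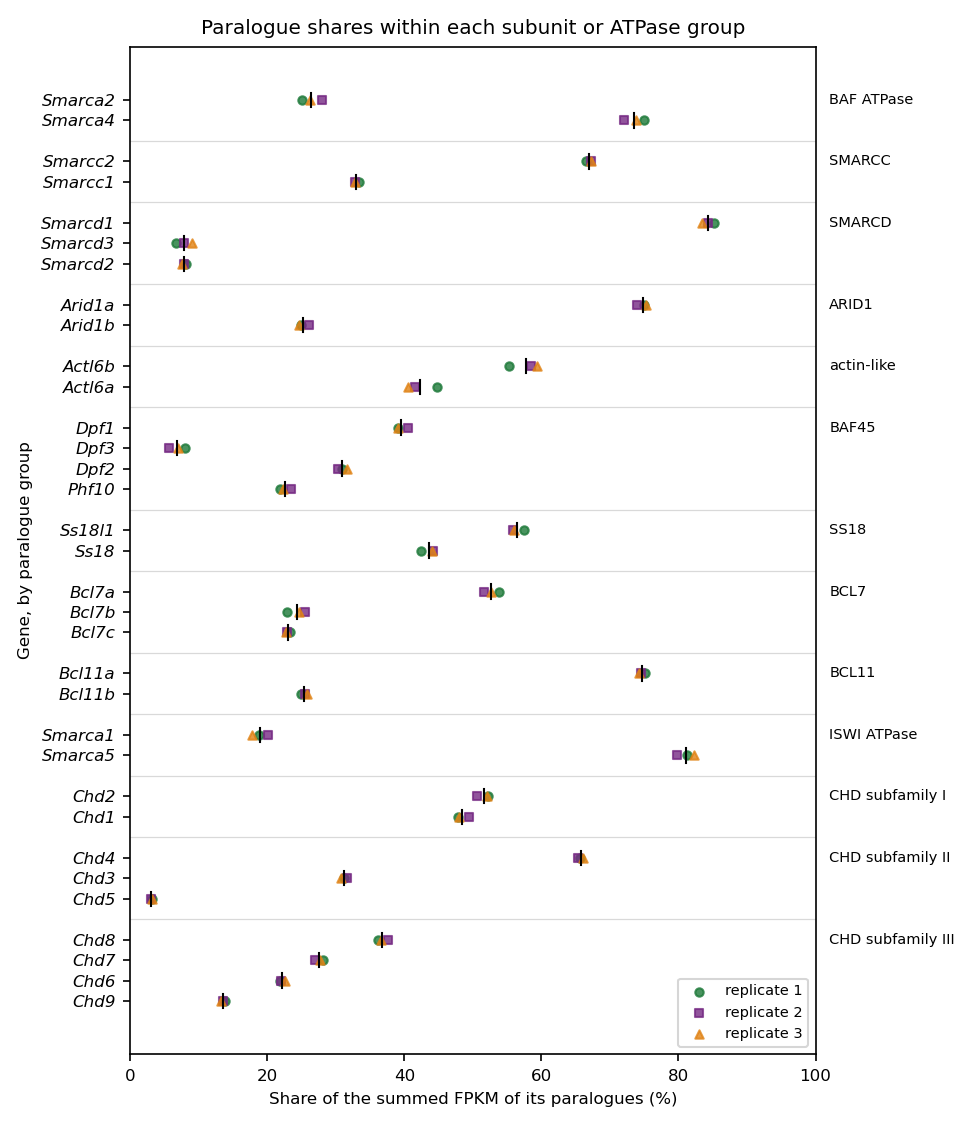
Share of the summed FPKM of each paralogue group held by each gene, in percent, with a point per replicate and a bar at the mean. Actl6b, Ss18l1 and Dpf1 lead their groups at 57.7%, 56.5% and 39.6%, while Smarcd1 at 84.3% and Smarca5 at 81.1% hold most of theirs.

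Summed over paralogues, the BAF positions differed in level. The SMARCC position had 117, 114 and 114 FPKM in replicates 1, 2 and 3, and the ATPase position 98.8, 96.5 and 93.6 FPKM. The BCL11 sum was the lowest, at 25.8 ± 0.399 FPKM (SD, n = 3). Among the others, the actin-like sum was 43.2 ± 2.11 FPKM (SD, n = 3), the SS18 sum 42.7 ± 1.98, Smarce1 43.3 ± 0.763 and Smarcb1 47.0 ± 1.51. The ranges of the actin-like sum, the SS18 sum and Smarce1 overlapped. The PHD finger sum was 74.5 ± 0.401 FPKM, and the SMARCD sum of 70.6 ± 1.69 and the sum of Arid1a, Arid1b and Arid2 of 74.2 ± 1.98 FPKM lay near it. These are transcript levels, and subunit protein or its ratio within complexes was not measured.

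**Figure D3:**
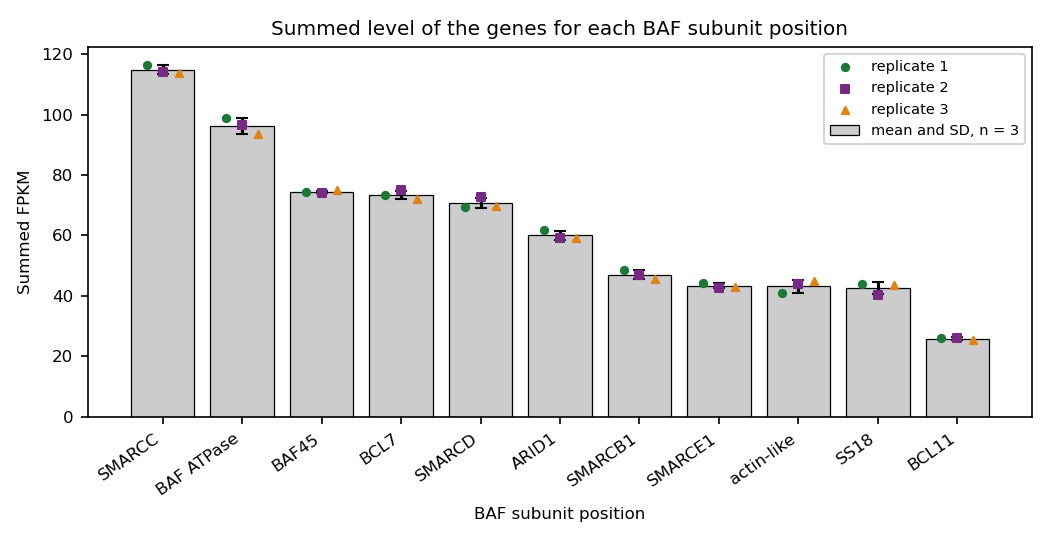
Summed FPKM of the genes for each BAF position, from the highest to the lowest, as a bar for the mean with its SD over 3 replicates and a point per replicate. SMARCC and the ATPases stand highest, at 115 and 96.3 FPKM, and BCL11 lowest, at 25.8 FPKM; Arid2, Brd7, Brd9 and Pbrm1 are not part of any bar.

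Among the accessory BAF genes, Bcl7a stood highest and Bcl11b lowest. Bcl7a, from a family of small nucleosome-binding subunits, had 39.5, 38.7 and 37.9 FPKM in replicates 1, 2 and 3, above Bcl7b with 16.7, 19.1 and 17.7 FPKM and Bcl7c with 17.1, 17.2 and 16.4 FPKM. The ranges of Bcl7b and Bcl7c overlapped, and neither reached that of Bcl7a, which held 52.7 ± 1.13% of the FPKM of the family (SD, n = 3). Bcl11a, a zinc finger factor of brain and blood found with neural BAF, had 19.6, 19.4 and 18.8 FPKM. Its paralogue Bcl11b, known from T cells and corticospinal neurons, had 6.49, 6.62 and 6.53 FPKM, a share of 25.4 ± 0.435% of the pair.

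Of the ISWI ATPases, Smarca5, which proliferating cells use widely, stood above Smarca1, which is known for its expression in neurons. Smarca1 had 6.46, 6.61 and 6.16 FPKM in replicates 1, 2 and 3, and Smarca5 had 27.9, 26.2 and 28.5 FPKM. The ranges were far apart, with a log2 ratio of Smarca1 to Smarca5 of -1.94 ± 0.10 (SD, n = 3) and a Smarca1 share of 18.9 ± 1.19%. A row for the pseudogene Smarca5-ps held 8.60 ± 0.480 FPKM, so reads of Smarca5 may have been divided between them. The pair also differed in promoter CpG, shown as above for the 250 bases before the start.
Smarca1 promoter, chrX:47892614-47892863, minus strand: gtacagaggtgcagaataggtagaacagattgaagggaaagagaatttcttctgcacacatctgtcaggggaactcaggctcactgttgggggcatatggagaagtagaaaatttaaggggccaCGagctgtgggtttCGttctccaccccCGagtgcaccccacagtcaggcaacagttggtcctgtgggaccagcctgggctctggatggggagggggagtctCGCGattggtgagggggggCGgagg
Smarca5 promoter, chr8:80739460-80739709, minus strand: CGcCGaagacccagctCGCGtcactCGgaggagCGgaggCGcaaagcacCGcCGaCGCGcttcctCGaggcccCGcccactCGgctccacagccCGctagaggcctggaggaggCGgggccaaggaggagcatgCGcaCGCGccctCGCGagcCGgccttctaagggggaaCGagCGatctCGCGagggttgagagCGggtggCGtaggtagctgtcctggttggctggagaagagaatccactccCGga
These stretches hold 6 CpG for Smarca1 and 29 for Smarca5. The 300-base ratio was 0.406 for Smarca1 and 0.936 for Smarca5.

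The CHD genes ran from the highest gene of the list, Chd4, to the last but one, Chd5. Chd4, the main ATPase of the NuRD deacetylase complex, had 85.2, 82.8 and 82.4 FPKM in replicates 1, 2 and 3. Chd3, its alternative, had 40.4, 40.02 and 38.4 FPKM, and Chd5, the neuronal NuRD ATPase, had 4.06, 3.79 and 3.95 FPKM. No ranges overlapped among these, and Chd5 held 3.10 ± 0.0911% of their sum (SD, n = 3). Chd5 thus stood low in samples in which the neuronal BAF genes Actl6b, Dpf1 and Ss18l1 had means of 24.9, 29.5 and 24.1 FPKM. Chd1, which binds methylated histone H3 at active promoters, and the related Chd2 were close to each other. Chd2 had 9.62, 8.83 and 9.13 FPKM, and Chd1 had 8.82, 8.63 and 8.40 FPKM. The lowest Chd2 value lay just above the highest Chd1 value. Among the subfamily III genes Chd8, linked to autism in humans, had 16.1, 16 and 15.4 FPKM. Chd7, which is mutated in CHARGE syndrome in humans and serves neural crest and neural stem cells, had 12.5, 11.5 and 11.6 FPKM. Chd6 had 9.73, 9.37 and 9.46 FPKM, and Chd9 had 6.19, 5.74 and 5.57 FPKM. Their order, Chd8, Chd7, Chd6 and Chd9, was the same in every library, with no overlap between neighbours. Ino80, the ATPase of the INO80 complex, had 3.75, 3.90 and 3.65 FPKM, and its range overlapped that of Chd5.

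Other remodelling genes outside the list of 40, namely complex partners and further SNF2 ATPases, were also expressed. Of 64 such genes 63 were matched, and 63 of 63 had at least 1 FPKM in every replicate, with a median mean of 13.8 FPKM. The 13 NuRD genes had a median of 27.0 FPKM, led by Cdk2ap1 at 99.1 ± 3.23 and the deacetylase gene Hdac2 at 94.8 ± 1.92 FPKM (SD, n = 3). Their methyl-CpG-binding-domain gene Mbd3 stood at 60.3 ± 0.767 FPKM, above Mbd2 at 25.5 ± 0.703 FPKM, which defines another form of NuRD. In the group of 27 INO80, SRCAP and TIP60 genes the median was 14.9 FPKM, and the histone variant chaperone gene Vps72 was highest at 57.9 ± 2.49 FPKM. The INO80 subunit genes Ino80b, Ino80c, Ino80d and Ino80e lay between 3.95 and 10.8 FPKM, and the shared AAA+ ATPase genes Ruvbl1 and Ruvbl2 at 28.4 ± 0.637 and 25.3 ± 0.214 FPKM. The 9 ISWI partner genes had a median of 11.4 FPKM, from Cecr2 at 2.13 ± 0.247 to Baz1b at 28.5 ± 0.946 FPKM. Bptf, the large subunit of the NURF complex, stood at 11.4 ± 0.507 FPKM. The 14 further SNF2 and BAF genes had a median of 6.12 FPKM. Among them the actin gene Actb, whose product is also a BAF subunit, was at 907 ± 11.1, Atrx at 19.4 ± 0.442 and Hells at 5.40 ± 0.529 FPKM.

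Most remodelling genes varied little between replicates, and Dpf3 and Smarcd3 varied most. The median coefficient of variation was 3.18% over the 40 genes, beside 4.18% over 9076 genes in the same range of means. Those genes were not matched to the 40 for level within the range or for length. Of the 40 genes, 33 lay under 5%, 5 between 5% and 10%, and 2 at 10% or more, where 9.88% of the genes in that range lie at 10% or more. The 2 were Dpf3 at 17.3% and Smarcd3 at 15.3%, followed by Actl6b at 8.58%, Bcl7b at 6.54% and Ss18l1 at 5.81%.

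Replicate 1 gave the highest value for 25 of the 40 genes and the lowest for 7, where 36.6% of all expressed genes were highest and 36.2% lowest in that replicate. The differences were small, and with a margin of 10% only Dpf3 was higher in replicate 1 than in both others, and only Actl6b and Smarcd3 were lower, where 4.74% and 9.75% of expressed genes were. All 9 CHD genes were highest in replicate 1, by 0.66% for Chd8 up to 7.80% for Chd9 over the higher of the others, and relative to each gene's mean over the libraries the 9 had median log2 deviations of 0.03, -0.02 and -0.03 in replicates 1, 2 and 3. Of the 28 BAF genes, 16 were highest and 7 lowest in replicate 1. The 7 were Smarcd3, Actl6b, Bcl7b, Phf10, Brd9, Bcl11b and Dpf1, and the margin was 18.8% for Smarcd3 and 0.50% for Dpf1. Other gene groups moved with replicate 1 as well. All 7 neuron markers were highest in it, at a median deviation of 0.05 (log2), and all 7 endoderm markers were lowest, at -0.33. Of the neural progenitor markers 4 of 6 were highest in replicate 1, at a median deviation of 0.03. Of the proliferation markers 4 of 5 were lowest in replicate 1, at only -0.03, with Mki67 at 12.18 FPKM against 12.82 and 12.20. The pluripotency markers were lowest in it, 3 of 3, but Nanog and Pou5f1 lay under 1 FPKM. The shares over expressed genes do not apply to those 2 genes. The part of the other cell types in these values was not tested. Of the 63 other remodelling genes, 24 were highest and 24 lowest in replicate 1.

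**Figure D4:**
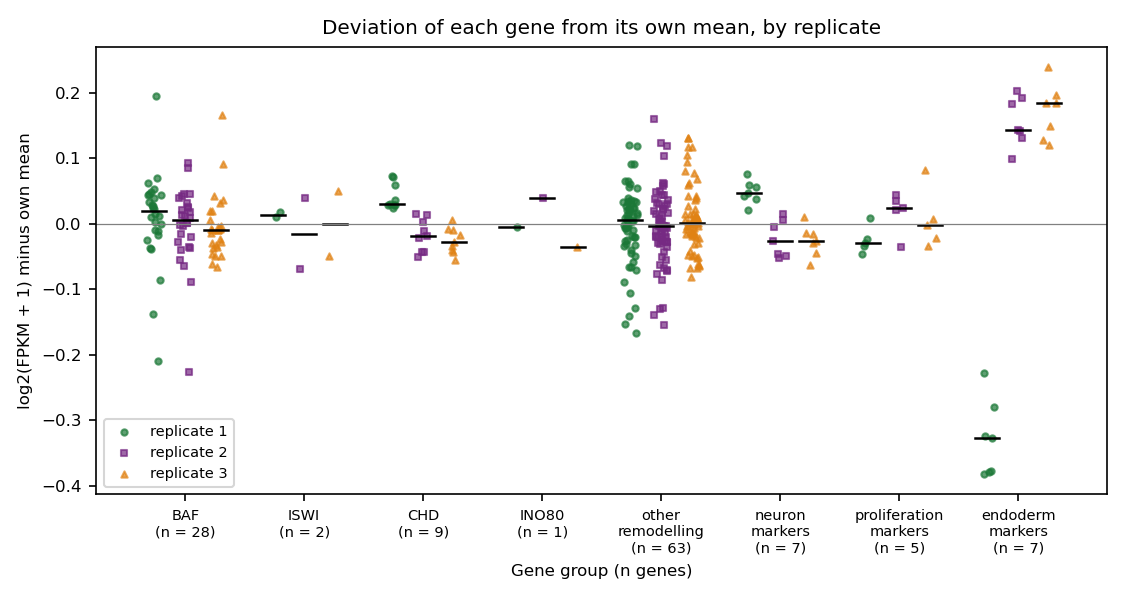
Difference, on the log2(FPKM + 1) scale, between a gene's value in each replicate and its mean, for the remodelling families, the other remodelling genes and 3 marker lists, with a point per gene and replicate and a bar at the median. The 9 CHD genes lie above 0 in replicate 1, and the endoderm markers lie far below it at a median of -0.33.

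Promoter windows of the remodelling genes were mostly rich in CpG. The RefSeq table (build GRCm38.p6) held 37 windows of 300 bases for 32 of the 40 genes. The ratio of observed to expected CpG had a median of 0.877 over these windows, beside 0.767 over 11831 windows of expressed genes and 0.384 over all 32851 windows. It was at least 0.6 in 34 of 37 windows (91.9%), beside 72.2% of the windows of expressed genes and 35.8% of all windows. The 3 windows below were those of Smarcd2 and Smarca1, described above, and the second of 2 windows of Chd9. Low level and low CpG did not go together throughout, as Ino80 and both windows of Chd5, the lowest genes of the list, had ratios of 0.876, 0.877 and 0.885. Among 7 short motifs searched on both strands, GGGCGG, the GC box, was found in 34 of 37 windows, beside 64.5% of the windows of expressed genes and 35.7% of all windows. The windows without it were those of Bcl11b and Dpf2 and the second window of Chd9. This motif is itself rich in G and C, and the windows of the remodelling genes had a median GC content of 68.0%, against 52.7% over all windows. The GC content of the windows of expressed genes alone is not given here. The motif AGGTCA, the core of retinoic acid receptor sites, was found in 1 of 37 windows, beside 16.3% of all windows and 12% of those of expressed genes. CAGCTG, an E-box of proneural factors, was found in 5 of 37 windows, beside 15% of the windows of expressed genes and 16.3% of all windows. CCAAT was found in 11 of 37, beside 37.8% and 37.4% of these. TTCAGCACC, a part of the site of the neuronal repressor REST, was found in 0 of 37 windows, beside 0.456% of the windows of expressed genes and 0.371% of all windows. TGACGTCA and CCGGAAGT, sites of CREB and ETS factors, were likewise found in 0 of 37. In windows of expressed genes their shares were 3.27% and 7.98%, and in all windows 1.79% and 3.89%. A missing match says only that these letters are not in the window. Regions from the ATAC-seq samples have coordinates in build mm9 and were not placed at these genes, since the gene positions used here are of another build.

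**Figure D5:**
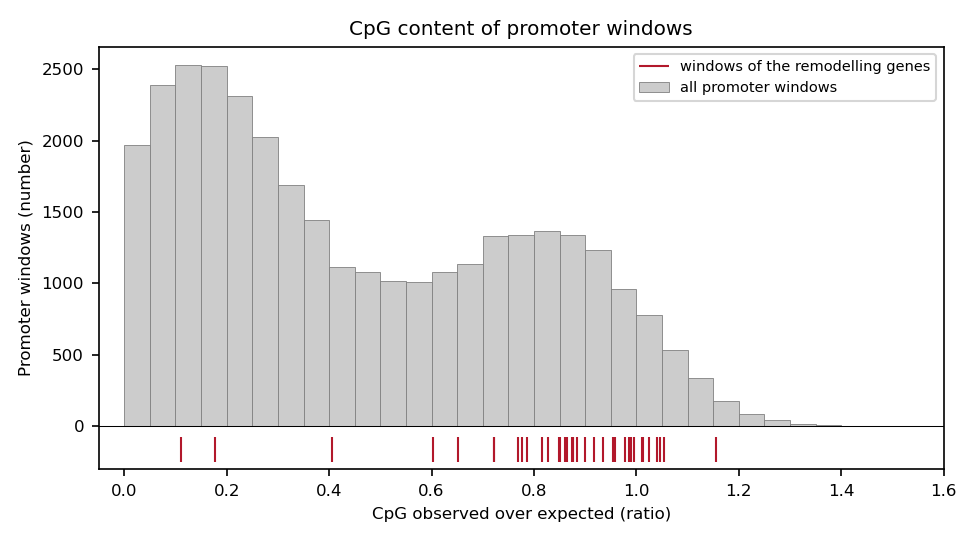
Number of promoter windows of 300 bases by their ratio of observed to expected CpG, for all 32851 windows as bars, with a tick below the axis for each of the 37 windows of the remodelling genes. Of the ticks, 34 stand at 0.6 or more, and the axis ends at 1.6.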

How the data were processed

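RNA-seq and ATAC-seq were each made from 3 samples of 1 condition, assigned from their titles, and no comparison between conditions exists. The deposited RNA-seq table has no unit in its header; its values were read as FPKM because the submitters' processing notes name Bowtie, Cufflinks and the build mm9, without versions or settings. The handling of multi-mapping reads and strand and any scaling between libraries are not given either. FPKM were used as deposited; log2 values carry a pseudocount of 1, which understates differences of low genes. Genes counted as expressed when every replicate had at least 1 FPKM. Relative depth was read from the most common ratio of values between 0.001 and 0.1 FPKM, assumed to be that of equal read numbers. No statistical test was made, since each result is a level, a share or a ratio within libraries; spread is the SD over 3 replicates. In counts simulated for 24002 genes, the depth estimate returned 1.5 where 1.5 had been set between replicates 1 and 2. In these counts equal read numbers gave exactly the set ratio, so the result checks the calculation and not the real depths. In the same counts, 200 of 200 genes made 3-fold lower in replicate 1 were found lowest there. Genes left unchanged can also come out lowest there, and their share in these counts is not given. The real margins of the remodelling genes lowest in replicate 1 were far smaller, from 0.50% for Dpf1 to 18.8% for Smarcd3. Whether calls with such small margins are reliable was not tested. Named genes were the 40 genes of the list, the other remodelling genes and the marker genes; genes that overlap these, and the pseudogene, were named after their values were seen. The members and lists were chosen with earlier results of these data known. Replicates were checked for copies, and 0 genes above 0 had identical values in any pair. Promoter windows came from RefSeq and carry no sample. ATAC-seq regions were not used here. Scripts ran in Python 3.11.15 with numpy 2.4.6, pandas 2.3.3 and scipy 1.17.1. As alternatives, the threshold was set to 0.5 or 5 FPKM, the pseudocount to 0.1 and a margin to 10%, libraries were scaled by the upper quartile, and replicates were left out in turn.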

Additional observations from a re-analysis of the deposited data

How the results depend on the processing

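All 40 remodelling genes stayed expressed at 0.5 FPKM, under upper-quartile scaling and with each replicate left out, and 36 did at 5 FPKM, as did 53 of the 63 other remodelling genes. The 5 paralogue ratios, given as log2 with a pseudocount of 1, kept their direction under every alternative. With a pseudocount of 0.1 the ratio of Smarca1 to Smarca5 was -2.08, beside -1.94, by more than 1 SD, as the pseudocount weighs more on the lower gene. With replicates left out in turn, the log2 ratio ranged from 0.38 to 0.50 for Actl6b over Actl6a, 0.33 to 0.38 for Ss18l1 over Ss18, -0.22 to -0.19 for Dpf1 plus Dpf3 over Dpf2 plus Phf10, -1.998 to -1.895 for Smarca1 over Smarca5 and -1.50 to -1.39 for Smarca2 over Smarca4. The median of the members ranged from 18.0 to 18.3 FPKM in the same way, the higher without replicate 1. The count of genes lowest in replicate 1 changed to 2 and that of genes highest in it to 1 when a margin of 10% was asked, and to 6 and 26 under upper-quartile scaling, where all 9 CHD genes stayed highest. The counts of genes highest in replicate 1 under alternatives were added after seeing the data. No paired analysis was possible because RNA-seq and ATAC-seq samples, which share replicate numbers, are not compared; paralogue ratios were taken within each library. Absolute depth is unknown, so no counting interval can be given. By the estimated relative depths, values of replicate 2 rest on the fewest reads.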

Other observations

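In the RefSeq annotation, 21 of the 40 remodelling genes are overlapped by another gene, and for 4 of them the other gene had a mean of at least 1 FPKM. Smarcd3, Phf10 and Pbrm1 were given above with theirs. The last is Chd8, which hosts the small nucleolar RNA gene Snord8. Snord8 was listed at 3634 FPKM in replicate 1 and at 0 in replicates 2 and 3, while Chd8 itself had 16.1, 16 and 15.4 FPKM. Small RNA genes are short, so a few fragments can give a large FPKM. Whether this applies to Snord8 was not tested.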
